A study of Mus musculus with 18 samples.

Results

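The sites described here were called for the forkhead factor Foxa2 in the livers of Zmpste24 mutant mice, lay apart from every wild-type site and sat close to a gene start. They were chosen by the deposited calls themselves: a mutant site on chromosomes 1 to 19 that shared no base with any wild-type site, with its midpoint within 5 kb of the nearest start of a protein-coding gene. This rule found 787 sites, out of 8051 mutant sites on these chromosomes and 8177 in the whole mutant list. They made up 11.7% of the 6698 mutant-only sites and lay nearest to 772 genes, which is 3.71% of the 20807 protein-coding genes on these chromosomes.

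Foxa2 ChIP-Seq had been done on liver of male C57BL/6 mice of 12 weeks, with 3 replicates of the Zmpste24 knockout and 3 of wild-type control littermates. Zmpste24 is the metalloprotease that trims prelamin A, and the knockout is a mouse model of premature aging in which the whole animal, not hepatocytes alone, lacks the enzyme. The replicates of each genotype were merged before peak calling and the mutant reads were thinned to the wild-type number, so each genotype has 1 list of sites, without heights or a value per replicate. Domains of lamin B1 and regions of the repressive histone mark H3K9me3 came from livers of other, wild-type C57BL/6 mice of 3 months (young) and 21 months (old), with 2 replicates each.

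With 1 list per genotype no test between genotypes was possible, and every share below is a count with a 95% Wilson interval, which covers counting error only. Absence from the wild-type list means that no site was called there, not that Foxa2 was absent.

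Foxa2 is a winged-helix transcription factor of the forkhead family that helps to open liver chromatin during development and stays bound at many regulatory elements of adult hepatocytes. It recognises short AT-rich sequences, of which TGTTTAC is the classical core, and genes of lipid, bile acid and glucose metabolism and of secreted plasma proteins are among those it is known to regulate. Lamin B1 is part of the meshwork under the nuclear envelope, and chromatin in contact with it is often silent.

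Some of the sequences that carried the forkhead word TGTTTAC, or GTAAACA on the other strand, are given next, to show where in these sites, upstream or downstream of the start, the word fell. The word is in capitals. Each stretch is the plus strand of GRCm38.p6 (the build called mm10) from RefSeq, reaches up to 60 bases to either side of the word nearest to the midpoint, and stops at the edge of the site or of an annotated exon.
F11 (chr8:45262043-45262116): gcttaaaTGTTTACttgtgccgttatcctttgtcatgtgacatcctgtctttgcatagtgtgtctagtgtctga
Rbp4 (chr19:38125496-38125562): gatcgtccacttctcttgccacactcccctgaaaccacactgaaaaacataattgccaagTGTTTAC
Tat (chr8:109993042-109993168): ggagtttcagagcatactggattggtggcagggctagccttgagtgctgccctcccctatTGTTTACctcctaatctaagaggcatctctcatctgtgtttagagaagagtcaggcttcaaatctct
Cyp2j5 (chr4:96664302-96664428): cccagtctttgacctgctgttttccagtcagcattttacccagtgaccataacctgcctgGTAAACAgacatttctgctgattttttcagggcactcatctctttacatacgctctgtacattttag
Acsl1 (chr8:46468570-46468696): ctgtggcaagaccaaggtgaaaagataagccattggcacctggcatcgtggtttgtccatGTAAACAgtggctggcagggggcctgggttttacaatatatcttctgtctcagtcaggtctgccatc
Nr1h4 (chr10:89533148-89533274): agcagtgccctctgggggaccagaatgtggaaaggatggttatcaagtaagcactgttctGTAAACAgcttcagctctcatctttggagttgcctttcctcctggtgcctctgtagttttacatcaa
Prox1 (chr1:190174104-190174230): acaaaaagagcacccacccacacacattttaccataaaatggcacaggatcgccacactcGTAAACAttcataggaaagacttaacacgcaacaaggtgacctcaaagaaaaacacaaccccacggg
Irs2 (chr8:11011612-11011738): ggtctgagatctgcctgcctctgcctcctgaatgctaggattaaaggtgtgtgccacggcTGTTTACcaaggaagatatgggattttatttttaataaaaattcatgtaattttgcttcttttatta
Pik3r1 (chr13:101765350-101765476): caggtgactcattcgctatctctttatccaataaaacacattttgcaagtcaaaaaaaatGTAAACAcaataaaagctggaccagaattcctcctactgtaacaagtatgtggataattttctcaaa
Stat5b (chr11:100848815-100848941): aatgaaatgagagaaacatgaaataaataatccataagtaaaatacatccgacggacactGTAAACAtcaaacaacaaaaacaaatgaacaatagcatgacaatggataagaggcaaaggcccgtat
In F11, coagulation factor XI, the word stood 22 bp upstream of the gene start. In Cyp2j5, a cytochrome P450 of the arachidonic acid pathway, it stood 211 bp upstream. In Rbp4, the plasma carrier of retinol, it was the last 7 bases of the site and lay 278 bp upstream. In Nr1h4, the bile acid receptor FXR, it lay 374 bp into the gene, and the site held 2 such words. The largest number of words in any of the 787 sites was 3, as at Tmtc4 and Lce1a2. At Tat, tyrosine aminotransferase, and at Acsl1, a long-chain acyl-CoA synthetase, the words lay 2.67 kb downstream and 2.4 kb upstream of the start.

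The mutant-only sites were spread more evenly around gene starts than the other sites near starts. Their median distance from the start was 1885 bp, and 250 of them, or 31.8% (95% interval 28.6 to 35.1%), lay within 1 kb. Among the 768 wild-type-only sites within 5 kb, 54.4% (50.9 to 57.9%) lay within 1 kb, and among the 345 sites of the mutant list that were shared with wild type the figure was 47.5% (42.3 to 52.8%). A span of 1 kb is 20% of one of 5 kb. The midpoint was upstream of the start in 46.5% of the mutant-only sites, and 18.9% of the sites covered the start itself, against 38.4% of wild-type-only and 30.4% of shared sites.

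**Figure D1:**
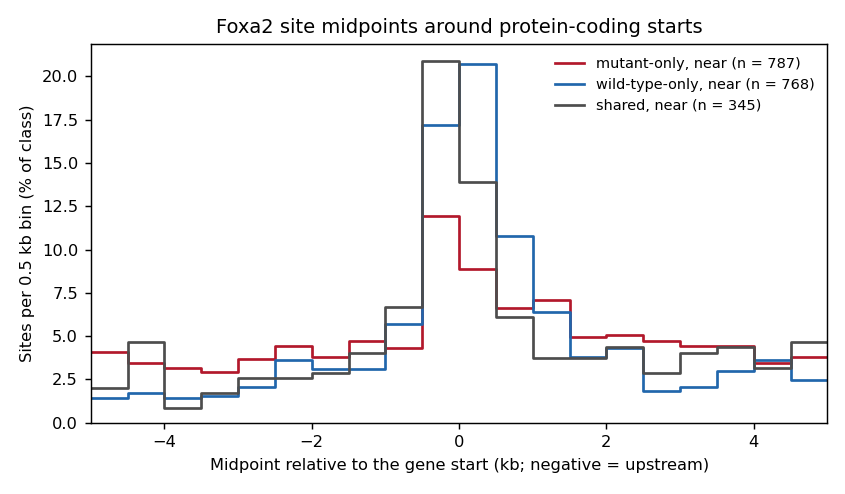
Share of sites (y axis, percent of each class) in bins of 0.5 kb by the position of the midpoint relative to the nearest protein-coding gene start (x axis, kb, negative values upstream), for mutant-only (red), wild-type-only (blue) and shared (dark grey) sites within 5 kb. The mutant-only line has its highest bin, 11.9%, just upstream of the start and is flatter than the other lines.

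Before the limit of 5 kb was applied, the lists also differed in how many sites lay near a start. Of the mutant-only sites 11.7% (11 to 12.5%) lay within 5 kb and 3.73% within 1 kb. Of the 3573 wild-type-only sites 21.5% (20.2 to 22.9%) lay within 5 kb and 11.7% within 1 kb, and of the 1353 shared sites 25.5% (23.2 to 27.9%) and 12.1% did. In number, 787 mutant-only and 768 wild-type-only sites were near starts.

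By annotation, the midpoints of 45.1% of the mutant-only sites near starts were intergenic and of 44.3% intronic. A further 5.72% fell in a 5' UTR, 3.3% in a coding exon and 1.52% in a 3' UTR. Wild-type-only sites near starts fell in a 5' UTR in 12.8% of cases and in a coding exon in 8.59%. Within 1 kb of the start the 5' UTR shares were 15.2% (11.3 to 20.2%) for mutant-only and 21.5% (17.9 to 25.7%) for wild-type-only sites. The mutant-only sites had a median width of 909 bp, from 247 to 16070 bp, compared with 1010 bp for wild-type-only and 592 bp for shared sites.

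At the limits of the rule, the site nearest to Ctsb lay 5000 bp from the start and those of Grhpr and Zfp933 4995 and 4990 bp, while the first sites left out lay at 5016 bp (Ly6a), 5035 bp (Uri1) and 5044 bp (Gm4951). The sites closest to a wild-type site were those of Cpn1, Gpr19 and Rps14, at 77, 89 and 152 bp. On the other side of that limit, the sites at Eef2, Saa3 and Crebzf shared 104, 180 and 206 bp with a wild-type site and were left out.

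The rule removed every mutant site that overlapped a wild-type site. The gaps from the mutant-only sites near starts to wild-type sites therefore describe only what it left. The median gap to the nearest wild-type site was 93.0 kb, with quartiles of 24.2 and 243 kb, compared with 169 kb for mutant-only sites further from starts. A wild-type site lay closer than 1 kb in 26 of the 787 (3.3%), closer than 5 kb in 74 (9.4%) and closer than 50 kb in 281 (35.7%). Of the 772 nearest genes, 64 (8.29%) had the midpoint of a wild-type site within 5 kb of their start, beside 5.78% of all 20807 protein-coding genes. Within 50 kb the numbers were 275 genes (35.6%) beside 25.6% of all genes. Insig2, which holds the SREBP escort protein in the endoplasmic reticulum, was one such gene, with a wild-type site 2.61 kb from its mutant-only site. Apob, the structural protein of very low density lipoprotein, had one 507 bp away, Irs2 875 bp away and Hpx, which binds free heme, 574 bp away.

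The base composition near starts lay between that of distal sites and that of gene starts. In the 300 bp around the midpoint the mutant-only sites near starts had a median GC content of 46.7% (46.0 to 47.3%), compared with 42.0% for the 5911 mutant-only sites further away, 49.3% for shared and 52.3% for wild-type-only sites near starts, and 58.3% for the windows around all 20807 protein-coding starts. The CpG ratio, observed over expected CpG dinucleotides, was 0.238 in the mutant-only sites near starts, 0.319 in shared, 0.384 in wild-type-only sites and 0.606 at all starts. The mutant-only sites near starts were also lower in GC than wild-type-only sites at a like distance. Among sites within 1 kb the GC content was 52.7% (50.7 to 54.3%) for mutant-only and 59.7% (58.0 to 61.3%) for wild-type-only sites, with CpG ratios of 0.495 and 0.65. Between 1 and 5 kb the GC content was 44.3% (43.3 to 45.3%) and 46.7% (46.0 to 47.7%).

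The forkhead word TGTTTAC, searched on both strands, was present in 173 of the 787 sites, or 22.0% (19.2 to 25%). Of these sites 155 held the word once and 18 held it 2 or 3 times. The shares were 19.1% (18.1 to 20.1%) in distal mutant-only sites, 21.6% (18.8 to 24.7%) in wild-type-only and 45.5% (40.3 to 50.8%) in shared sites near starts. Because a wider site holds more words, the density is the more even measure. It was 0.256 words per kb in mutant-only sites near starts, 0.226 in distal mutant-only sites, 0.229 in wild-type-only and 0.71 in shared sites near starts. It was held by 23.6% (18.8 to 29.2%) of the mutant-only sites within 1 kb of the start and by 21.2% (18 to 24.9%) of those between 1 and 5 kb.

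In windows of equal length, 300 bp, the word was in 9.4% (7.56 to 11.6%) of the mutant-only sites near starts, 7.46% (6.82 to 8.16%) of distal ones, 10.2% (8.21 to 12.5%) of wild-type-only sites and 30.4% (25.8 to 35.5%) of shared sites, and in 2.39% (2.19 to 2.61%) of the windows around all protein-coding starts. The last windows were also the richest in GC, and the part of base composition in these shares was not tested. A looser spelling, with A or G at the second and the sixth base and C or T at the last, includes the strict word. It was in 46.9% (43.4 to 50.4%) of the mutant-only windows near starts and 51.0% (49.7 to 52.3%) of distal ones. The shares were 35.4% (32.1 to 38.9%) in wild-type-only windows, 66.7% (61.5 to 71.4%) in shared windows and 21.6% at all starts. Near and distal mutant-only sites were thus in the reverse order of that for the strict word. Where a site held the strict word, the nearest one lay a median of 170 bp from the midpoint in mutant-only sites near starts, 152 bp in wild-type-only and 94 bp in shared sites. It was within 100 bp of the midpoint in 30.1% (23.7 to 37.3%) of the mutant-only sites with a word and in 53.5% (45.7 to 61.1%) of the shared ones. Shared sites were also narrower, with a median width of 592 bp against 909 bp for mutant-only and 1010 bp for wild-type-only sites. Width limits how far a word can lie from the midpoint, and its part in these distances was not tested.

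**Figure D2:**
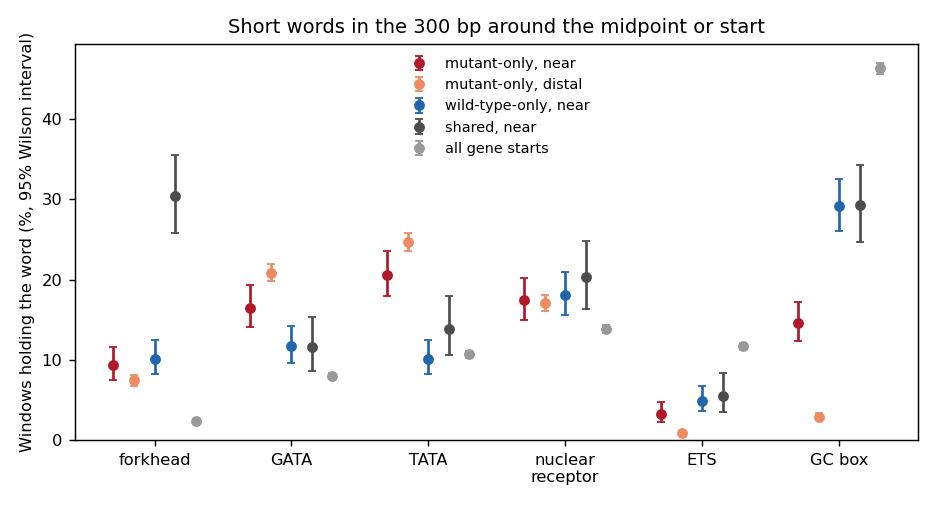
Share of 300 bp windows (y axis, percent, bars are 95% Wilson intervals) that hold each of 6 short words (x axis), for mutant-only sites near starts (red), distal mutant-only sites (orange), wild-type-only (blue) and shared sites near starts (dark grey), and all protein-coding starts (light grey). The forkhead word is most frequent in shared sites, 30.4%, and the GC box at all starts, 46.3%.

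The GC box GGGCGG, which Sp1 binds, was less frequent in mutant-only sites near starts than in the other classes near starts. It was in 14.6% (12.3 to 17.3%) of the mutant-only windows near starts, 29.2% of wild-type-only, 29.3% of shared, 2.89% of distal windows and 46.3% of all starts. The ETS word CCGGAAG was in 3.3%, 4.95%, 5.51%, 0.863% and 11.7% in the same order. For the ETS word the intervals of the 3 classes near starts overlapped, and within 1 kb of the start the shares were 8.8% in mutant-only, 8.13% in wild-type-only and 8.54% in shared sites. The GATA word AGATAA was in 16.5% (14.1 to 19.3%) of the mutant-only windows near starts, 11.7% of wild-type-only, 11.6% of shared, 20.9% of distal windows and 8.03% of all starts. The TATA word TATAAA was in 20.6% (17.9 to 23.5%), 10.2%, 13.9%, 24.7% and 10.7%. Within 1 kb GATA shares were 10.4% (7.2 to 14.8%) for mutant-only, 9.81% (7.31 to 13%) for wild-type-only and 7.93% for shared sites. Between 1 and 5 kb they were 19.4% (16.2 to 22.9%), 14% (10.8 to 18%) and 14.9%, with overlapping intervals at both distances. TATA shares were 14.4%, 6.7% and 13.4% within 1 kb and 23.5%, 14.3% and 14.4% between 1 and 5 kb.

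The nuclear receptor core word AGGTCA, part of the binding sites of many hepatic receptors, was in 17.4% (14.9 to 20.2%) of mutant-only windows near starts, 18.1% (15.5 to 21%) of wild-type-only, 20.3% (16.4 to 24.8%) of shared, 17.1% (16.1 to 18%) of distal windows and 13.8% (13.4 to 14.3%) of all starts. Between 1 and 5 kb from the start it was in 19.4% of mutant-only, 24.3% of wild-type-only and 26% of shared windows. For the AP-1 word TGANTCA the shares were 5.72% (4.3 to 7.57%), 8.98% (7.16 to 11.2%), 7.54%, 10.4% and 5.95%. For the E-box CACGTG, which clock factors bind, they were 5.08% (3.75 to 6.85%), 7.81%, 8.99%, 3.05% and 7.52%. The words CCAAT of NF-Y, CCATTGT or CCTTTGT of Sox factors and TTGCNNCAA of C/EBP were in 36.8%, 8.77% and 2.8% of the mutant-only windows near starts and in 36.2%, 6.96% and 1.7% of all starts. The CRE word TGACGTCA and the YY1 word AAGATGGCG were each in 0.762% of the mutant-only windows near starts, and in 2.32% and 2.23% of all starts.

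The sites were also described by their place in the deposited mutant list, although the sources used here do not say what it is sorted by. In the first 10% of the mutant list 76.8% of the sites overlapped a wild-type site, and in the last 10% the share was 3.87%. The mutant-only sites near starts had a median place of 4163 and those shared with wild type a median place of 1040. Of the mutant-only sites 19.1% (14.2 to 25.4%) were near a start in the first 10% of the list, 12.1% (9.62 to 15%) in the next 10% and 10.2% (8.3 to 12.6%) in the last 10%. In successive parts of 25% of the list the shares were 15%, 12.2%, 10.7% and 10.5%.

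The forkhead word was in 28.6% (22.2 to 36.0%) of the mutant-only sites near starts in the first 25% of the list and in 16.7% (12.2 to 22.5%) of those in the last 25%, but the median width also fell, from 1052 to 829 bp. In the fixed window of 300 bp the shares were 9.32% and 9.85%. The share of these sites within 1 kb of a start was 29.2% in the first 25% of the list and 39.4% in the last 25%.

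**Figure D3:**
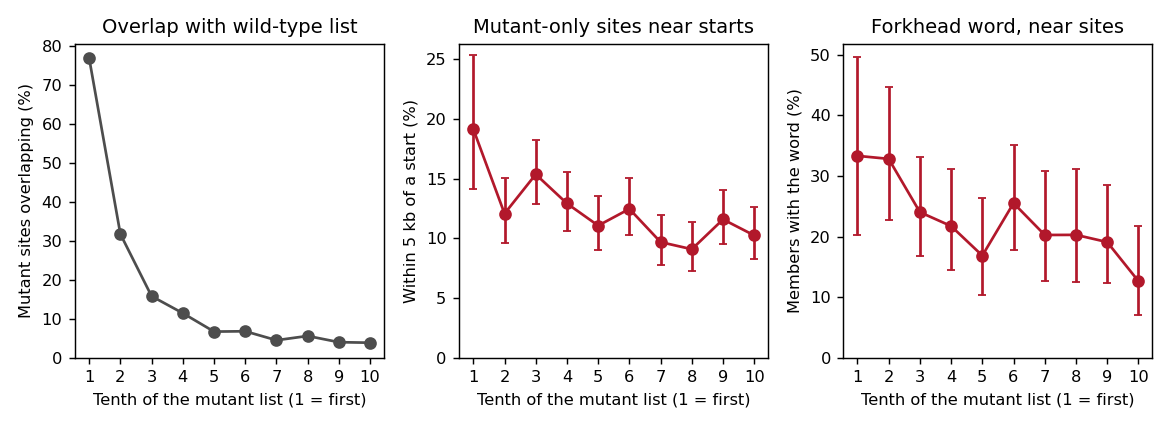
Properties of the deposited mutant list by successive parts of 10% (x axis, 1 is the first part): the share of all mutant sites that overlap a wild-type site (left), the share of mutant-only sites within 5 kb of a gene start (middle) and the share of these near sites with the forkhead word (right), all in percent with 95% Wilson intervals in the last 2 panels. Overlap falls from 76.8% to 3.87%.

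The first members in the list were wide and rich in repeats. The sites near Gm21738, Sfi1 and Gm10717 stood at places 1, 4 and 6, were 4216, 16070 and 2683 bp wide and held no forkhead word. Repeats covered 89.3%, 45.3% and 100% of their central 300 bp. The other members among the 5 widest were at Mup5, a major urinary protein, and the olfactory receptor genes Olfr699 and Olfr704, with widths of 4142, 4205 and 3016 bp. In all, 12 members were wider than 2 kb. The next member in the list was A1cf, the cofactor of Apob mRNA editing, at place 180. Its site was centred 301 bp upstream of the start and held 1 forkhead word. Nr5a2, the nuclear receptor LRH-1, followed at place 208 without the strict forkhead word. Repeats covered 8.33% of the central 300 bp at both. Ube2g2, Rps16, Taf4b, Rnf19a and Yipf4 came next, at places 243, 274, 277, 301 and 314. Their repeat shares were 52.3%, 8%, 0%, 74.3% and 14.7%.

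Overlap with the lamin B1 and H3K9me3 lists of wild-type liver was also counted for these sites. Contact with the nuclear envelope itself was not measured here. Lamin B1 domains covered 466 Mb in young and 930 Mb in old liver, and H3K9me3 regions covered 576 and 617 Mb, so the old lamin B1 list was the largest of these lists by length. Of the 787 sites 43.6% (40.2 to 47.1%) overlapped a lamin B1 domain of young liver and 70.4% (67.1 to 73.5%) one of old liver. The H3K9me3 lists used here held 2784 regions in young and 2496 in old liver. They hold fewer regions than the study describes, for a reason not given in the sources used here, and every H3K9me3 share rests on these shorter lists. H3K9me3 regions took in 13.1% (10.9 to 15.6%) and 20.5% (17.8 to 23.4%).

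The distal mutant-only sites had lower lamin B1 shares, 24.3% (23.2 to 25.4%) in young and 42.6% (41.4 to 43.9%) in old liver, and an H3K9me3 share of 24.4% at both ages. Windows at all protein-coding starts stood at 38.0% and 65.7% for lamin B1 and at 13.7% and 25.7% for H3K9me3. Wild-type-only sites near starts stood at 50.7% (47.1 to 54.2%) and 76.6% (73.4 to 79.4%) for lamin B1, and shared sites at 47.2% (42.0 to 52.5%) and 79.1% (74.5 to 83.1%). For H3K9me3 wild-type-only sites stood at 11.6% (9.51 to 14%) and 19.1%, and shared sites at 13.6% (10.4 to 17.6%) and 15.4%. For lamin B1 the shares of the mutant-only sites near starts lay between those of all starts and of the other Foxa2 sites near starts.

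**Figure D4:**
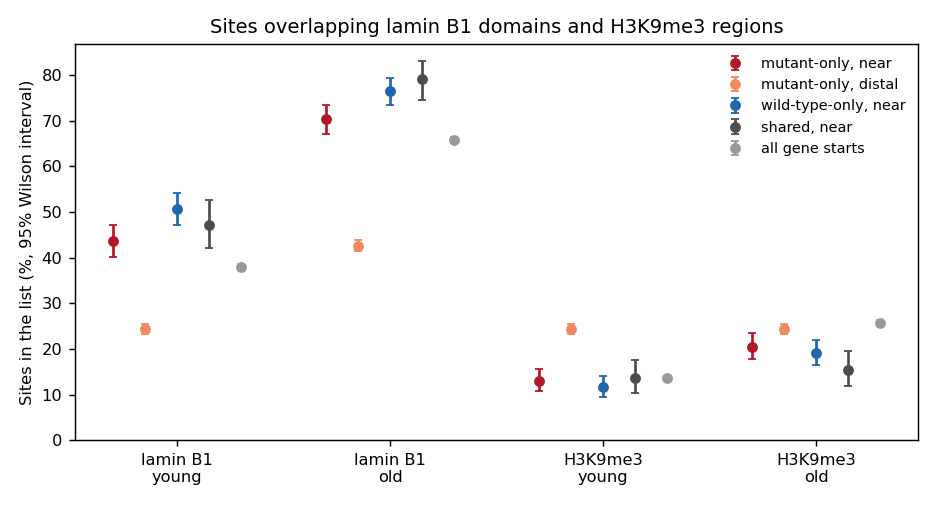
Share of sites (y axis, percent, bars are 95% Wilson intervals) that overlap lamin B1 domains or H3K9me3 regions of young and old wild-type liver (x axis), for the same 5 classes of regions. Distal mutant-only sites have the lowest lamin B1 shares, 24.3% and 42.6%, while mutant-only sites near starts stand at 43.6% and 70.4%.

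By age, 37.1% of the mutant-only sites near starts lay in lamin B1 domains at both ages, 33.3% (30.1 to 36.7%) in old liver alone, 6.48% (4.96 to 8.42%) in young liver alone and 23.1% at neither. The old-only share was near that of all starts, 32.2%, of wild-type-only sites, 32.3%, and of shared sites near starts, 35.1%. In distal mutant-only sites it was 25.3%. Young-only overlap with lamin B1 domains was found for 4.49% (4.22 to 4.78%) of all starts, 7.0% of distal mutant-only sites, 6.38% of wild-type-only and 3.19% (1.79 to 5.62%) of shared sites near starts. The 51 sites in young-only domains included both sites of Fxr1, an RNA-binding protein, and both of Sult1d1, a cytosolic sulfotransferase, and single sites at Cd46, Tmtc4 and Hspa9. Their median GC content was 41.0% and 31.4% (20.3 to 45.0%) held the forkhead word, beside 46.7% and 22.0% (19.2 to 25%) for all 787 sites. The 51 sites were also wider, with a median of 1001 bp beside 909 bp. In the 300 bp window the word was in 13.7% (6.81 to 25.7%) of them, beside 9.4% (7.56 to 11.6%) of all 787. Of all 787 sites, 4 lay in both lamin B1 and H3K9me3 lists of young liver and in neither of old liver: those of Etfa, a subunit of the electron transfer flavoprotein, of the prohormone convertase Pcsk1, and of the developmental factors Isl1 and Atoh1. That is 0.508% of the sites, beside 0.692% of all starts and 1.54% of distal mutant-only sites. Among sites near starts it was 0.521% of wild-type-only and 1.16% of shared ones.

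Genes were assigned by nearest start, which does not make them targets. Of the 772 genes 758 had 1 site, 13 had 2 and C1rl, a complement C1r-like protease, had 3. These sites at C1rl lay 187 bp upstream, 2515 bp and 4632 bp downstream of the start, and the closest wild-type site was 168 kb away. Among the genes with 2 sites were Nr1h4, at 161 and 2549 bp downstream, F5, coagulation factor V, at 1200 and 3194 bp downstream, and Sult1d1, at 172 bp downstream and 1261 bp upstream. In 91 members (11.6%) more than 1 protein-coding start lay within 5 kb. Of the 772 genes 37 (4.79%) were also nearest to a wild-type-only site and 24 to a shared site. Among all 20807 protein-coding genes the shares were 3.61% for wild-type-only and 1.59% for shared sites.

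The sites with midpoints closest to a start belonged to genes of several kinds. Those of Raver1 and Tmprss11c were 1 bp away, of Mknk2, a kinase of the translation factor eIF4E, 3 bp, of Serpind1, the thrombin inhibitor heparin cofactor II, 4 bp, of D130040H23Rik 5 bp, of Rbp4 7 bp, of Fgl1, a fibrinogen-like protein secreted by hepatocytes, 10 bp, of Dcakd 17 bp, of Dmxl1 19 bp and of Chrna3, a nicotinic receptor subunit, 21 bp. Of these 10 sites, 3 held the forkhead word: Mknk2, Rbp4 and Dmxl1. None of the 10 had a wild-type site within 50 kb of the gene start.

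In 20 lists of genes with known roles in liver, 706 genes were on chromosomes 1 to 19, and 52 of them were nearest to a mutant-only site. Beside the 3.71% of all protein-coding genes nearest to a mutant-only site, 3.61% were nearest to a wild-type-only and 1.59% to a shared site within 5 kb. In the same lists 65 genes were nearest to a wild-type-only and 44 to a shared site. The mutant-only share was above that of all genes in 14 of the 20 lists, but above the wild-type-only share in 3 (plasma proteins, fatty acid oxidation and xenobiotic metabolism).

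**Figure D5:**
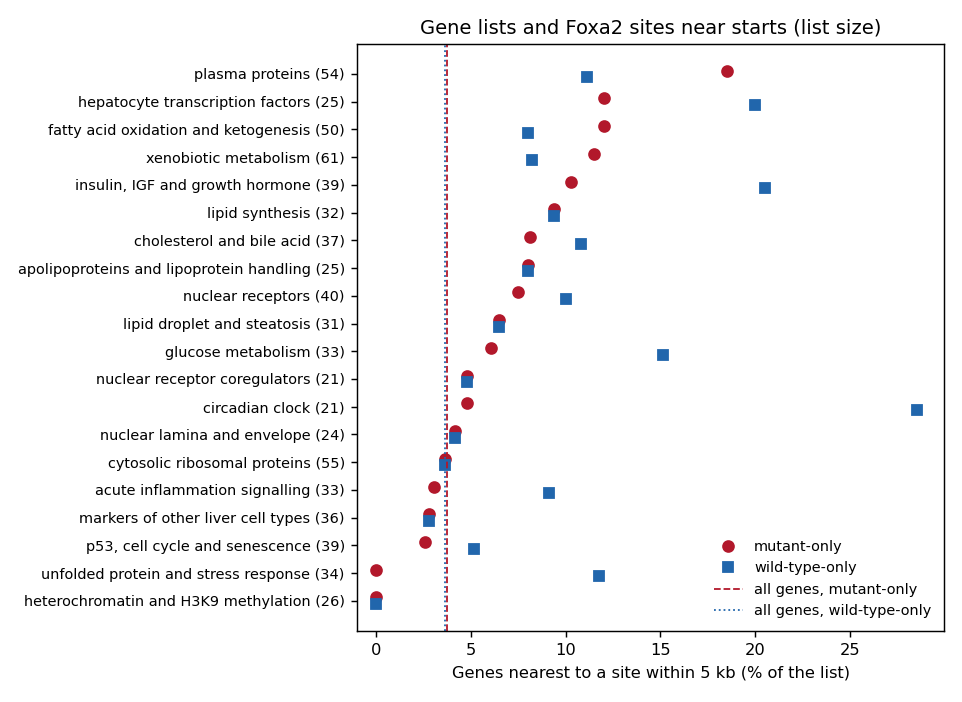
Share of the genes of each of 20 lists (y axis, list size in brackets) that are nearest to a mutant-only (red circles) or wild-type-only site (blue squares) within 5 kb of the start (x axis, percent). The lines mark all protein-coding genes, 3.71% and 3.61%; plasma proteins have the highest mutant-only share, 18.5%.

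Plasma proteins were the list with the highest share: 10 of 54 genes, or 18.5%, were nearest to a mutant-only site, 6 to a wild-type-only and 12 to a shared one. The 10 were Serpind1, Rbp4, Fga, F11, F2, C3, Ambp, F5, F12 and Hpx. Of these, 5 act in blood clotting: fibrinogen alpha (Fga, 155 bp upstream), factor XI (F11, 298 bp upstream), prothrombin (F2, 464 bp upstream), factor V (F5) and factor XII (F12). C3, the central complement component, had its site 473 bp upstream. Only Hpx also had a shared site as one of its nearest. Wild-type sites within 50 kb of the start numbered 7 for Fga, 2 for F11 and 1 for F2. For F5, C3, Serpind1 and Rbp4 the number was 0. The nearest wild-type site lay 4.69 kb from the site at Fga.

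In fatty acid oxidation and ketogenesis 6 of 50 genes (12.0%) were nearest to a mutant-only site and 4 to a wild-type-only site. Acox2, a peroxisomal oxidase of bile acid precursors, had its site 100 bp upstream. Acsl1 had it 2145 bp upstream and Hadh, a mitochondrial dehydrogenase, 3094 bp downstream. Etfa, Cyp4a10 and Acox3 had sites in introns 2324, 3876 and 4839 bp from the start.

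In xenobiotic metabolism the count was 7 of 61 genes (11.5%), with 5 for wild-type-only sites. Cyp2j5 and Cyp2b10, a cytochrome P450 induced by phenobarbital, had sites 547 and 748 bp upstream. Por, the reductase that supplies cytochromes P450 with electrons, and Ephx2, an epoxide hydrolase, had sites 1449 and 1367 bp downstream. Aldh2, Aldh3a2 and Sult1d1 completed the list.

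Among regulators, 3 of 25 hepatocyte transcription factors were nearest to a mutant-only site, 5 to a wild-type-only and 3 to a shared one. They were Nr5a2 (139 bp downstream), Zhx2, a repressor of fetal liver genes (324 bp upstream), and Prox1, a homeobox factor of hepatoblasts (3524 bp upstream). The site at Nr5a2 was 2082 bp wide and did not hold the strict forkhead word, while that at Prox1, 824 bp wide, held 2. The looser spelling occurred 12 times at Nr5a2 and 3 times at Prox1. Nuclear receptors gave 3 of 40, Nr1h4, Esrra, a regulator of mitochondrial genes (350 bp upstream), and Nr2c1 (865 bp downstream), and 4 for wild-type-only sites. Of 21 coregulators 1 was included, the corepressor Nrip1 (126 bp upstream).

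In lipid synthesis 3 of 32 genes were nearest to a mutant-only site, Insig1 (153 bp downstream), Insig2 (523 bp upstream) and Dgat2, which makes triglyceride (3481 bp upstream), and 3 to a wild-type-only site. The lipid droplet and steatosis list gave 2 of 31, Bscl2, the seipin gene (1159 bp upstream), and Apob (1156 bp downstream), and also 2 for wild-type-only sites. The apolipoprotein list gave 2 of 25, Apob and Pon1, the paraoxonase carried on high-density lipoprotein, and 2 for wild-type-only sites. In cholesterol and bile acid metabolism 3 of 37 genes were nearest to a mutant-only site and 4 to a wild-type-only site. The 3 were Cyp27a1, a sterol hydroxylase (414 bp upstream), Fdps (1675 bp upstream) and Sqle, squalene epoxidase (1835 bp downstream).

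Glucose metabolism gave 2 of 33 genes, Tat (2500 bp downstream) and pyruvate carboxylase Pcx (4627 bp upstream), and 5 for wild-type-only sites. In insulin, IGF and growth hormone signalling 4 of 39 genes (10.3%) were nearest to a mutant-only site and 8 to a wild-type-only site. They were the insulin receptor substrate Irs2, the catalytic and regulatory subunits of phosphoinositide 3-kinase Pik3ca and Pik3r1, and Stat5b, which acts downstream of growth hormone. Each of these 4 sites held 1 forkhead word, beside 22.0% of all 787 sites that held any. The 4 sites were 620, 815, 1684 and 1367 bp wide, beside a median of 909 bp over all 787.

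The other lists were at or near the share of all genes, or at 0. Of 21 clock genes 1 was nearest to a mutant-only site, Clock itself, and 6 to a wild-type-only site. Of 24 genes of the nuclear lamina and envelope 1 was, Tor1aip1, which encodes the lamina-associated polypeptide 1 and whose site lay 288 bp from a wild-type site. The p53, cell cycle and senescence list gave 1 of 39 (Cdk6), acute inflammation signalling 1 of 33 (Irf7), cytosolic ribosomal proteins 2 of 55 (Rps14 and Rps16) and markers of other liver cell types 1 of 36 (Pdgfrb, a receptor of stellate cells and other mesenchymal cells). No gene of the 34 in the unfolded protein and stress response was included, where 4 were nearest to a wild-type-only site, and none of the 26 in heterochromatin and H3K9 methylation, where wild-type-only sites also gave 0.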

How the data were processed

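Foxa2 ChIP-Seq was done in liver of 3 Zmpste24 knockout and 3 wild-type littermate mice, lamin B1 and H3K9me3 ChIP-Seq in liver of other mice. Per the labels the authors aligned reads to mm10 with BWA, and SICER is named among their tools. They merged the replicates of a group, thinned mutant reads to the wild-type number and called Foxa2 sites with PeakSeq against an input from a mix of young and old wild-type livers. The deposited files hold positions alone (chromosome, start and end), with no height, score or depth. The depth per library is therefore unknown here, and the knockout itself could not be checked from these files. The study gives aligned reads pooled per group. By these, old liver had fewer reads than young liver for lamin B1 and more for H3K9me3. The caller behind the H3K9me3 list is not given in the sources used here.

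From these positions, sites on chromosomes 1 to 19 were classified by overlap of at least 1 bp and by distance from the midpoint to GENCODE vM21 gene starts, and lists of 20 gene groups and 14 short words were counted in Python 3 with pandas and pysam. For the midpoint's annotation, UTRs took precedence over coding exons, then introns. Gene names that differed were matched through RefSeq synonyms, which resolved 2 of 3. Sequences came from the RefSeq GRCm38.p6 genome; a further site is not reported here. The scripts were tested on simulated sites. Members, lists and tests were chosen with earlier results of these data known. Genes were named by rule: up to 6 per list by distance, those with most members, the 10 members nearest a start, 3 at each limit, and the 5 widest and the 5 with most forkhead words (ties by width); other names, such as genes with 2 members, the first rows and young-only lamin B1 sites, were chosen after their values were seen. All intervals are 95% and cover counting error only, and neighbouring sites are not independent. Alternatives changed the overlap, the distance, the set of starts, the window and the word.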

Additional observations from a re-analysis of the deposited data

How the results depend on the processing

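Of 42 values recomputed under other settings, 26 stayed within the counting interval (for counts, within 1.5 times) and 16 did not. The number of sites, 787, was 250 with a limit of 1 kb, 1272 with 10 kb, 1410 with the starts of all annotated genes and 454 among sites wider than their list's median. The share of mutant-only sites, 11.7%, was 3.73%, 19% and 21.1% under the first 3 of these, 15.6% with the starts of all protein-coding transcripts, 12.6% where only a reciprocal overlap of 50% removed a site and 13.3% in the first 50% of the mutant list (chosen after seeing the data). With transcript starts, 36.1% of the sites lay within 1 kb. The share with the forkhead word, 22.0%, was 9.4% in the 300 bp window and 77.9% with the looser word. Among sites within 1 kb of a start, 74.0% lay in lamin B1 domains of old liver, and 10.8% and 17.6% in H3K9me3 regions of young and old liver. Leaving out the 12 members wider than 2 kb, also chosen after seeing the data, moved none of the 7 values recomputed (GC content, CpG ratio, forkhead word, lamin B1 and H3K9me3 shares) past its interval. The cause of these shifts was not tested beyond the settings' own construction.

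No paired analysis was possible because the deposited lists are calls on merged replicates. For the same reason leaving out a replicate was not possible, and the spread between animals is unknown. The lists hold no heights, so a site just under the caller's threshold and an absent one cannot be told apart.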

Other observations

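Gene families grouped by symbol, chosen after the values were seen, were described in the same way. Of 372 solute carrier genes 23 (6.18%) were nearest to a mutant-only site, beside 3.71% of all genes, and 13 to a wild-type-only site. They included Slc22a26, an organic ion transporter gene with a site 230 bp upstream that held 1 forkhead word, Slc2a5, the fructose transporter, and Slc17a1. Of 100 cytochrome P450 genes 7 were nearest to a mutant-only site, 5 to a wild-type-only and 7 to a shared site, and of 22 UDP-glucuronosyltransferase genes 4, 2 and 2 were. Cyp2d26 had its site 97 bp upstream of the start and Ugt1a9 had one 681 bp from a wild-type site.

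Of 1128 olfactory receptor genes 18 (1.6%) were nearest to a mutant-only site, 5 to a wild-type-only and none to a shared site. Of 327 vomeronasal receptor genes 7 (2.14%), 0 and 0 were. Only 2 of the 18 olfactory receptor sites and none of the 7 vomeronasal receptor sites overlapped a lamin B1 domain of either age. Among all 787 sites 23.1% overlapped no such domain. The sites at Olfr693, Olfr699 and Olfr704, on chromosome 7, were 2776, 4205 and 3016 bp wide, although the median over the 18 sites was 1009 bp.

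Of 39 genes of the Hox clusters, which pattern the body axis, 4 were nearest to a mutant-only site (Hoxa7, Hoxa9, Hoxb5 and Hoxc10), and 1 to a wild-type-only site. All 4 sites overlapped H3K9me3 regions and lamin B1 domains of at least 1 age, and none held the forkhead word. Among all 787 sites 74.1% overlapped no H3K9me3 region and 23.1% no lamin B1 domain of either age, and 22.0% held the word.

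By chromosome, the number of sites per 100 protein-coding genes ran from 1.95 on chromosome 2 to 5.61 on chromosome 15.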
